A study of Homo sapiens with 10 samples.

Results

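Within the library of Kuramochi cells exposed to 5 µM olaparib (T5), the authors' deposited cell table places 398 cells in 2 states, 183 cells in S1 and 215 cells in S2, and the 2 groups of cells are set side by side here. The members are the listed cells with the library name T5 and a state of S1 or S2. They are 398 of the 726 T5 cells in the count matrix and of 18209 cells in the whole series. The other 328 T5 cells have no state in the table and are called unlisted. Kuramochi is an established human ovarian cancer line that the labels describe as epithelial and BRCA2-mutant, and every cell of both states carries that background and was grown in the same medium until confluency under 5 µM olaparib. The series holds 1 inDrop library each of untreated cells (C) and of cells at 1, 2.5, 5, 10, 20, 40, 80, 160 and 320 µM (T1 to T320), taken along 1 escalation of the drug, so there is no replicate of any population.

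The states are the authors' own and were given to the same cells whose expression is described. The rule by which cells received a state was not given in the sources used here. A difference between S1 and S2 is therefore a description of what the states hold, with no test, no p-value and no estimate of the spread between cultures. Both states lie in 1 library, so culture, droplet run, sequencing and counting were shared by the cells compared. S1 was also listed in T1 and T2.5, and S2 in T2.5, T10 and T20. T2.5 and T5 are the libraries that hold both.

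Olaparib blocks PARP enzymes, which mark and help repair broken DNA strands, and cells that lack BRCA2 function are usually sensitive to it because they repair double-strand breaks poorly. High-grade serous ovarian carcinoma, the tumour type that Kuramochi is used to model, keeps features of the fallopian tube epithelium such as the transcription factors PAX8 and SOX17, keratins, and secreted proteins such as WFDC2. Carcinoma cells can also shift along an epithelial to mesenchymal axis. Desmosomes, tight junctions and keratins mark the epithelial end, and fibrillar collagens and smooth muscle contractile proteins mark the mesenchymal end.

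The states were alike in depth. S1 gave 558471 UMIs (unique molecular identifiers, counts of captured RNA molecules) and S2 640406. The median cell held 2564 UMIs in S1 and 2488 in S2, and 1280 among the unlisted cells. Mitochondrially encoded genes took 9.63% of UMIs in S1 and 9.12% in S2, and ribosomal protein genes 12.6% and 12.1%. Of the 398 barcodes, 39 also occur in another library of the series. Leaving those cells out gave 71 higher and 64 lower genes in place of the 76 and 61 described next. Of those 76 and 61 genes, 65 and 55 were still called.

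Counts were summed over the cells of a state and scaled to CPM, the UMIs of a gene per 1000000 UMIs of the state. A gene was measured when it reached at least 100 CPM in S1 or S2, and it was called higher or lower when log2(CPM + 10) differed by at least 1. Among 2145 measured genes, 76 were higher in S2 (3.54%) and 61 were lower (2.84%). The median gene stood at -0.00, and 1634 genes (76.2%) differed by less than 0.5 either way. Most measured genes thus lay near the line of equal level. The genes under the minimum are not covered by these counts. Fold intervals below are exact 95% intervals that cover counting error only, on sums that every called gene reached with at least 75 UMIs over both states.

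**Figure D1:**
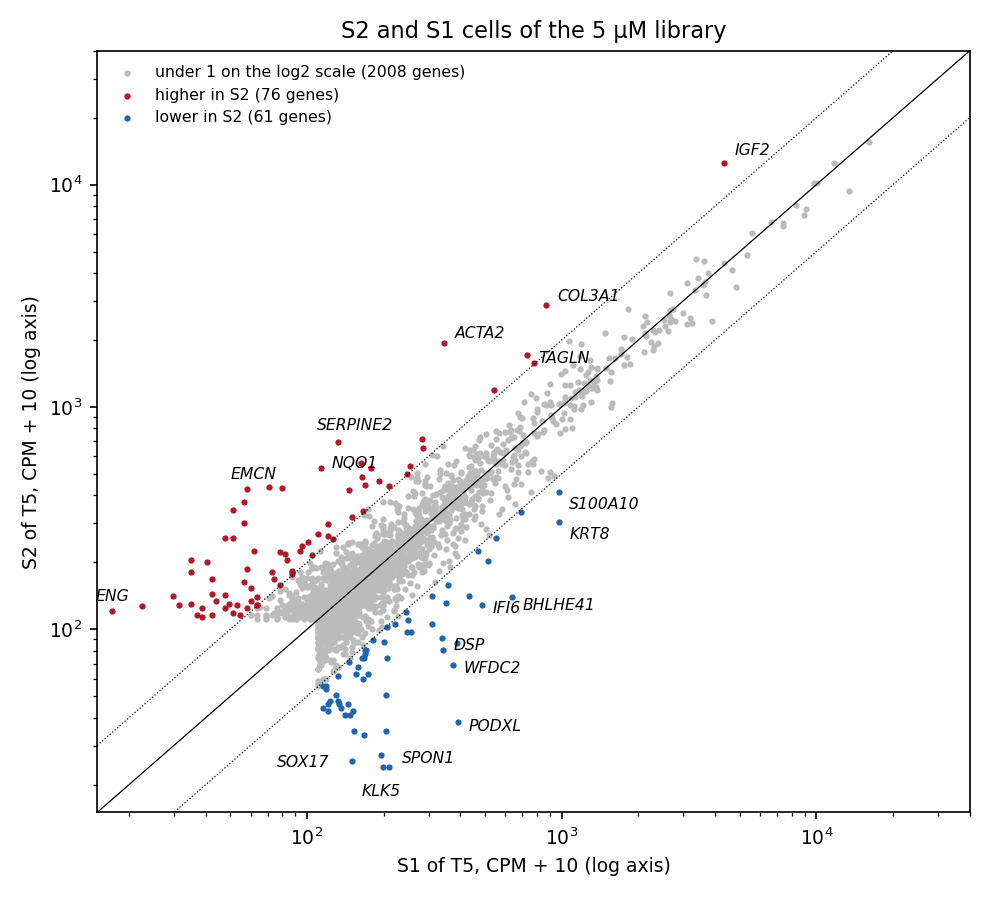
Level of each of the 2145 measured genes in S1 (horizontal axis) and S2 (vertical axis) of T5, both in CPM + 10 on log axes; the solid line is equality and the dotted lines are a log2 difference of 1. The 76 higher genes reach from low levels, such as ENG, up to IGF2 at 12517 CPM in S2, and the 61 lower genes include PODXL at 383 CPM in S1 and 28.1 in S2.

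EMCN and ENG, which encode surface proteins, had the highest differences. EMCN encodes endomucin, a sialomucin best known from the endothelium of small vessels. It was listed at 48.3 CPM in S1 and 415 CPM in S2, 8.59-fold higher (5.77 to 13.3), on 27 and 266 UMIs. ENG, a co-receptor for TGF-beta ligands, was 7.16 CPM in S1 and 111 CPM in S2, 15.5-fold higher (5.79 to 58.4), although its 4 UMIs in S1 leave that fold wide. The defining endothelial markers VWF, CDH5 and KDR were listed at 0 in both states, which is not a measured absence. EMCN lies at chr4:100395341-100880126 and ENG at chr9:127815012-127854756 (GRCh38, GENCODE 29). The next in order of difference belong to no list used here. They were C11orf96 (41.2 CPM in S1, 334 in S2), FAM198B (46.6 and 362), LHFP (60.9 and 428) and PCDH18, a protocadherin of the cell surface (25.1 and 195 CPM). C1QTNF3, a secreted protein related to complement C1q, was 46.6 and 292 CPM, and THSD7A, a membrane protein with thrombospondin repeats, 25.1 and 170 CPM.

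Smooth muscle contractile genes were also among those called higher. ACTA2, the smooth muscle alpha-actin that marks myofibroblasts, was 335 CPM in S1 and 1936 CPM in S2, 5.78-fold higher (4.95 to 6.78; chr10:88935074-88991339). TAGLN, the actin-binding protein transgelin, was 723 and 1704 CPM, 2.35-fold higher (2.10 to 2.65). ACTG2, the smooth muscle gamma-actin, was 73.4 and 195 CPM, a difference of 1.30 on the log2 scale. Actin genes are close in sequence, and how shared reads were counted was not given in the sources used here, so the split between ACTA2 and ACTG2 is uncertain. FHL1, a LIM protein of muscle, was 12.5 and 117 CPM. In the list of actin cytoskeleton and adhesion genes, 0 of 29 measured members were called higher and 2 lower, with a median of 0.23. All measured genes gave 3.54% and 2.84%. The lower ones were ITGB5, an integrin chain, at -1.18 and TAGLN2, a relative of transgelin, at -1.05. TPM2 stood at a difference of 0.92, VCL at 0.79, ACTB at 0.32 and MYH9 at -0.09. The general mesenchymal filament gene VIM was 1067 CPM in S1 and 1249 CPM in S2, 1.17-fold higher (1.05 to 1.30). Of the 14 measured members of the mesenchymal list, 2 were called higher, against 3.54% of all measured genes, and 0 lower, with a median of 0.39.

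Genes of the fibrillar matrix were called higher as well. COL3A1, the chain of type III collagen, was 861 CPM in S1 and 2873 CPM in S2, 3.34-fold higher (3.02 to 3.70; chr2:188974320-189012746). COL1A1, a chain of type I collagen, was 37.6 and 248 CPM, 6.6-fold higher (4.17 to 11). BGN, the small proteoglycan biglycan that binds collagen, was 30.4 and 191 CPM. COL5A1, which nucleates fibrils, was 91.3 and 236 CPM, and PLOD1, a lysyl hydroxylase of procollagen, was 116 and 244 CPM. In the list of fibrillar collagen and its processing, 5 of 15 measured members were called higher and 0 lower, against 3.54% of all measured genes, and the median member stood at 0.52. COL14A1, which decorates fibrils, was 69.8 and 420 CPM, and COL8A1, a short-chain collagen, 19.7 and 131 CPM. FN1, fibronectin, went the other way without being called, at 2383 CPM in S1 and 1935 in S2. The basement membrane list was mixed: HSPG2, which encodes perlecan, was called lower at 159 and 67.1 CPM, while LAMB1 stood at a difference of 0.69 and the median of 8 members at 0.10.

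Fibroblast markers need a separate word, since collagen and ACTA2 also mark fibroblasts. The summed level of the 5 fibroblast markers in the matrix was 969 CPM in S1 and 3290 CPM in S2, and most of it was COL3A1. PDGFRB, the beta receptor for platelet-derived growth factor, was 3.58 and 92.1 CPM. PDGFRA stayed at 3.58 and 4.68 CPM and THY1 at 62.7 and 71.8 CPM. PAX8, the lineage factor of the tumour, was 442 CPM in S1 and 337 CPM in S2. After thinning each cell to 1000 UMIs, 25.2% of S1 cells (exact binomial interval 18.6 to 32.6) and 25.3% of S2 cells (19.1 to 32.3) had a PAX8 UMI. These shares differed by less than their counting error. The summed level of the 5 ovarian serous markers, PAX8 among them, was 808 CPM in S1 and 409 CPM in S2.

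Single secreted regulators were called in both directions. IGF2, insulin-like growth factor 2, was the most abundant called gene, at 4335 CPM in S1 and 12517 CPM in S2, 2.89-fold higher (2.76 to 3.02). Among the other 8 measured genes of the insulin-like growth factor axis none was called, against 3.54% higher and 2.84% lower of all measured genes. With so few members that count says little. Their differences ran from -0.23 in IGFBP2 to 0.74 in IGFBP3. SERPINE2, an inhibitor of thrombin and plasminogen activators, was 122 and 684 CPM, 5.62-fold higher (4.34 to 7.36). Plasminogen activators themselves were called lower, PLAT at 111 CPM in S1 and 32.8 in S2 and PLAU at 172 and 79.6 CPM. SULF1, an enzyme that removes sulfate from heparan chains, was 152 and 550 CPM. The semaphorins SEMA3A and SEMA3D, secreted guidance proteins, were 68.0 and 41.2 CPM in S1 and 212 and 247 CPM in S2.

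Detoxifying enzymes gave isolated calls. NQO1, a quinone reductase and textbook target of the factor NRF2, was 104 CPM in S1 and 522 CPM in S2, 5.02-fold higher (3.79 to 6.76). It was the sole call among 11 measured NRF2 targets, where 3.54% of all measured genes were called higher. The median of these targets was 0.20, and SLC7A11 of the same list stood at -0.60. CYP1B1, a cytochrome P450 that oxidizes aromatic compounds, was 272 and 709 CPM, 2.60-fold higher (2.16 to 3.15). ABCB1, a drug efflux pump, was not analysed here.

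The lower genes were led by surface and secreted products of the serous epithelium. PODXL, podocalyxin, an anti-adhesive sialomucin of apical membranes, was 383 CPM in S1 and 28.1 CPM in S2, 13.6-fold lower (8.42 to 23.4; chr7:131500262-131558217). SPON1, the matrix protein spondin 1, was 201 and 14.1 CPM, 14.3-fold lower (7.25 to 32.0). KLK5 and KLK6, secreted serine proteases whose genes neighbour each other on chromosome 19, were 188 and 138 CPM in S1 and 14.1 and 31.2 CPM in S2. WFDC2, which encodes the serum marker HE4, was 363 and 59.3 CPM, 6.13-fold lower (4.32 to 8.91; chr20:45469706-45481532). In the list of secreted products of serous carcinoma, 6 of 10 measured members were called lower, against 2.84% of all measured genes, and the list's median was -1.43. SULF1 was the 1 member called higher, and SPP1 stood at -0.11 and SLPI at 0.30.

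Transcription factors of the lineage did not move as 1 block. SOX17, a factor of the Müllerian lineage, was 140 CPM in S1 and 15.6 CPM in S2, 8.94-fold lower (4.61 to 19.4). WT1, a nuclear marker of serous carcinoma, lay under the 100 CPM minimum in both states, at 89.5 and 7.81 CPM on 50 and 5 UMIs, 11.5-fold lower (4.60 to 36.8). PAX8 was 1.31-fold lower (1.09 to 1.58) and EMX2 stood at -0.67, neither called. NR2F2 stood at 0.16. Over the 6 measured members of the serous lineage list, 3 were called lower, against 2.84% of all measured genes, and the median was -1.01. They were SOX17, WFDC2 and the surface protein gene BCAM, so WFDC2 counts in both lists. MSLN, mesothelin, which marks serous carcinoma and mesothelium, was also under the minimum at 93.1 and 12.5 CPM. MECOM, another of the ovarian serous markers and under the minimum too, was 43.0 CPM in S1 and 35.9 CPM in S2, on 24 and 23 UMIs.

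Junction and keratin genes gave the lowest list median. DSP, desmoplakin, which ties keratin to desmosomes, was 333 CPM in S1 and 70.3 CPM in S2, 4.74-fold lower (3.41 to 6.72; chr6:7541575-7586717). CLDN4, a tight junction claudin, was 193 and 40.6 CPM, with 35 of its 108 UMIs in S1 from 1 cell. KRT8 was 965 and 294 CPM, 3.29-fold lower (2.78 to 3.90), and its partner KRT18 was 247 and 87.4 CPM. The annotated spans of KRT8 and KRT18 overlap on chromosome 12, so their counts may not be fully separate. KRT19, under the 100 CPM minimum, had 23 UMIs in S1 and 0 in S2, at least 8.79-fold lower against a floor of 3 UMIs over the state. KRT7, also under the minimum, was 12.5 CPM in S1 and 15.6 CPM in S2, on 7 and 10 UMIs, too few to compare. Of 8 measured members of the epithelial list, 5 were called lower, against 2.84% of all measured genes, and 0 higher, with a median of -1.50. JUP, plakoglobin, stood at -0.14, and EPCAM was listed at 0 in every T5 cell. The surface genes CD9, BCAM and CD47 were called lower too, with differences of -1.36, -1.34 and -1.08.

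**Figure D2:**
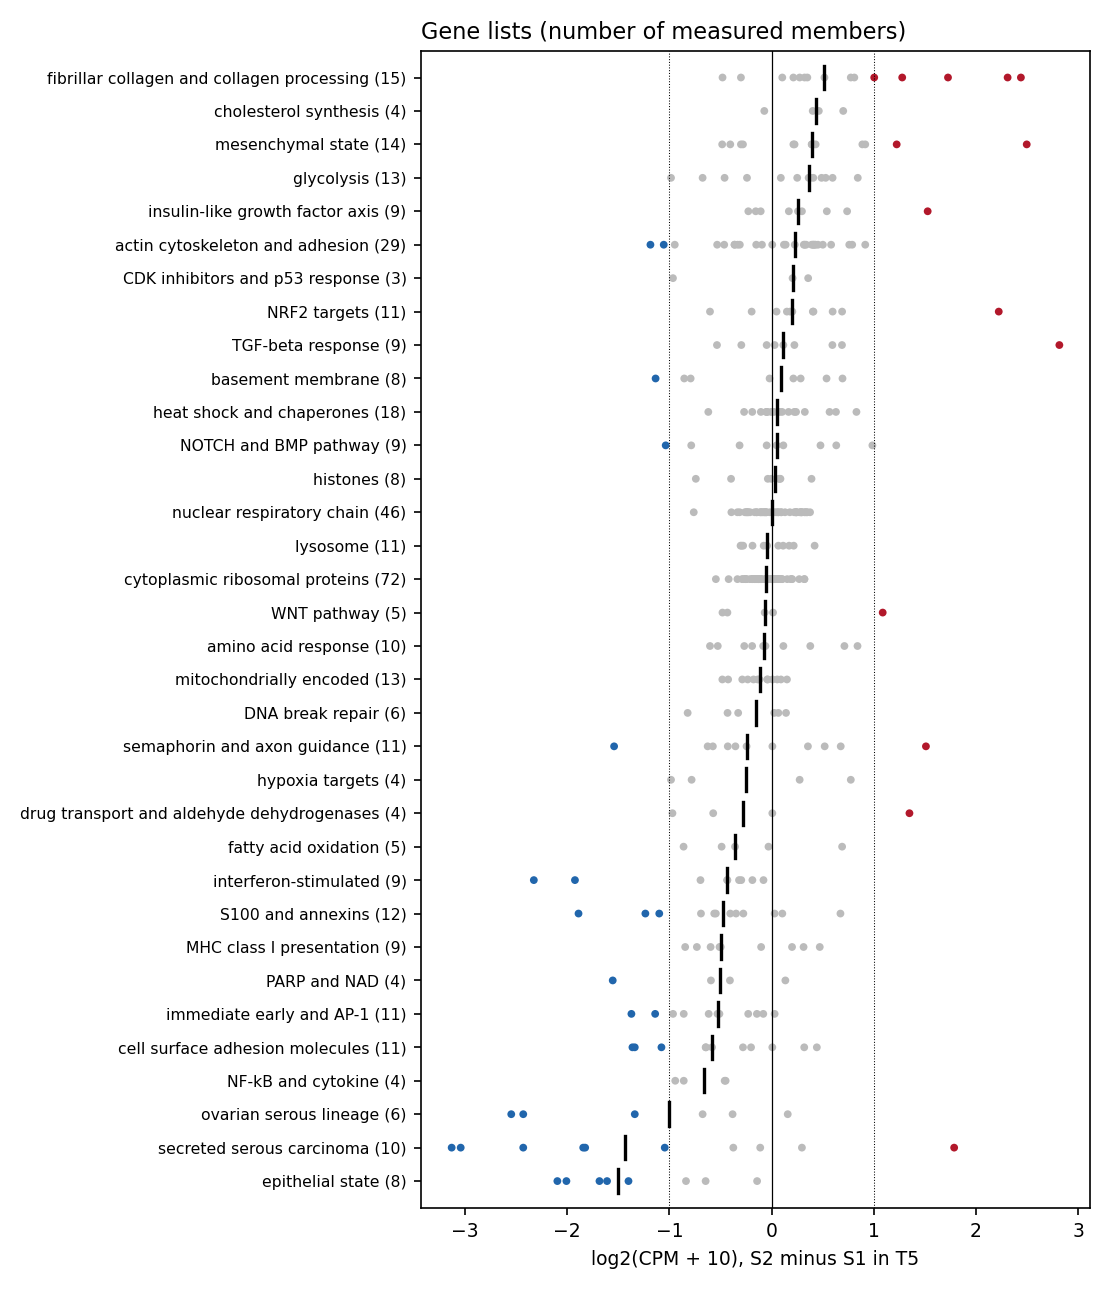
Differences of log2(CPM + 10), S2 minus S1 in T5, for the measured members (points) of the 34 gene lists with at least 3 of them, with the median as a black bar; red points are called higher, blue points called lower, and dotted lines mark a difference of 1. The epithelial list has the lowest median at -1.50 and the fibrillar collagen list the highest at 0.52, while the ribosomal protein and respiratory chain lists sit near 0.

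Of 9 measured interferon-stimulated genes 2 were called lower in S2, against 2.84% of all measured genes, and all 9 stood below 0, with a median of -0.43. IFI27, a mitochondrial protein strongly induced by type I interferon, was 158 CPM in S1 and 23.4 CPM in S2, 6.73-fold lower (3.87 to 12.5; chr14:94104836-94116698). IFI6, a second induced membrane protein, was 478 and 119 CPM, 4.03-fold lower (3.11 to 5.27; chr1:27666061-27672218). Those were the called members. ISG15, a ubiquitin-like modifier, was 120 and 70.3 CPM, a difference of -0.70, and LGALS3BP and IFITM1 each stood at -0.43. No member of the MHC class I list was called, but HLA-B stood at -0.73 and HLA-C at -0.60, and B2M at -0.10. That list was mixed, with 6 of 9 measured members below 0 and 3 above. Its summed level was 4330 CPM in S1 and 4065 CPM in S2. HLA-B and HLA-C are close in sequence, so the split between them is uncertain.

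Among 11 measured immediate early genes 2 were called lower, against 2.84% of all measured genes, and the median was -0.53. They were FOSB, at 113 CPM in S1 and 37.5 in S2, and JUN, at 301 and 131 CPM, and both encode subunits of the AP-1 transcription factor. IER2 stood at -0.08 and CYR61 at 0.03. PPP1R15A, a phosphatase subunit induced by stress, was 193 and 25 CPM, 7.74-fold lower (4.56 to 14), but 32 of its 108 UMIs in S1 came from 1 cell. In the S100 and annexin list 3 of 12 measured members were called lower, against 2.84% of all measured genes. They were the calcium-binding S100A16, S100A10 and S100A2, at differences of -1.89, -1.23 and -1.10, while S100A11 stood at 0.03 and ANXA6 at 0.67.

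In the PARP and NAD list, tied to the drug, 1 of 4 measured members was called lower, against 2.84% of all measured genes. The list's median was -0.50. PARP1, the main target of olaparib, was 290 CPM in S1 and 189 CPM in S2, 1.54-fold lower (1.21 to 1.96). BRCA2 had 6 and 4 UMIs in the states, too few to compare. Of 38 genes in the DNA break repair list 6 were measured, with a median of -0.15. None of the 6 was called, against 3.54% higher and 2.84% lower of all measured genes, so that count says little. NMNAT2, which makes NAD, the substrate of PARP enzymes, was the called member, at 299 and 95.3 CPM. SLFN11, whose expression is known to sensitize cells to PARP inhibitors, was listed at 0 in every T5 cell. Housekeeping groups were near equality: none of 72 ribosomal protein genes, 46 nuclear respiratory chain genes or 13 mitochondrially encoded genes was called, with medians of -0.05, 0.01 and -0.12. Cell-cycle transcripts were low in both states, with a summed G2/M list of 1133 CPM in S1 and 1052 in S2.

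Promoter sequences of genes that moved together are given with the motifs they hold. RefSeq starts (GRCh38.p14) were matched for 56 of the 76 higher and 50 of the 61 lower genes, and the 250 bases before each start were searched on both strands. The motifs were chosen after the values were seen. The CArG box (CC, then 6 bases of A or T, then GG), the site that serum response factor binds in smooth muscle genes, occurred before at least 1 start in 7 of 56 higher genes (12.5%) and 2 of 50 lower genes (4%), and in 2.78% of the measured genes with a promoter. The E-box CAGGTG, which repressors of epithelial genes such as SNAI1 and ZEB1 bind, occurred in 8 of 56 higher genes (14.3%) and 18 of 50 lower genes (36%), and in 18.0% of measured genes. The interferon element, GAAA with any 2 bases before a second GAAA, occurred in 3.57%, 6% and 3.84% of them. The AP-1 site TGANTCA occurred in 12.5% of higher, 18% of lower and 6.98% of measured genes. Over all genes with a promoter, 1.44% held a CArG box and 20.6% the E-box (1.16% and 17.5% of promoters). A gene counts if any of its starts has a match. The 56 higher genes had 123 promoters, the 50 lower genes 87 and the 1691 measured genes 2620. Per promoter, a CArG box occurred in 8 of 123 higher, 2 of 87 lower and 52 of 2620 measured ones. The E-box occurred in 8.13%, 21.8% and 13.2% of them, and the AP-1 site in 6.50%, 12.6% and 5%. Per promoter, the AP-1 share of higher genes thus lay nearer to that of measured genes. Genes with several starts were given each start, and a match describes letters and no binding. The sequences below were picked among genes that hold a match, so they do not stand for all genes of their groups. ACTG2 and FHL1 are from the contractile genes, DSP and WFDC2 from the epithelial and serous genes, and IFI27 and IFI6 from the interferon genes. TAGLN is not among the genes with a CArG box, and CLDN4, KRT8, KRT18 and SOX17 are not among those with the E-box. A gene without a matched start could not be counted. Each runs 5′ to 3′ on the gene's strand up to the base before the start, with the motif matches in capitals.
ACTG2, CArG box, chr2:73892758-73893007, + strand: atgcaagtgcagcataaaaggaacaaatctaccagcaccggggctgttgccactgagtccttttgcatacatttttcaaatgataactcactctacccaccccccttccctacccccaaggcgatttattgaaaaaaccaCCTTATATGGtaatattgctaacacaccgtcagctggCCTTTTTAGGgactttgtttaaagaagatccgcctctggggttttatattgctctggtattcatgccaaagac
FHL1, CArG box, chrX:136196797-136197046, + strand: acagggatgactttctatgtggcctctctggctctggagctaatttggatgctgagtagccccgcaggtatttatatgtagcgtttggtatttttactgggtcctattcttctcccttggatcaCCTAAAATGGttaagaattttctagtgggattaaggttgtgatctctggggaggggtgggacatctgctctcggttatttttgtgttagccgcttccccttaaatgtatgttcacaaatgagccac
DSP, E-box, chr6:7541421-7541670, + strand: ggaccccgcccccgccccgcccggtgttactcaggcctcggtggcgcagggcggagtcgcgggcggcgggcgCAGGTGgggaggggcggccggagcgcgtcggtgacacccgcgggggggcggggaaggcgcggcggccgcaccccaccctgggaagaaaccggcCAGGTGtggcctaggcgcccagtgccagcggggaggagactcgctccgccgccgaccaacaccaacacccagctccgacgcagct
WFDC2, E-box, chr20:45469503-45469752, + strand: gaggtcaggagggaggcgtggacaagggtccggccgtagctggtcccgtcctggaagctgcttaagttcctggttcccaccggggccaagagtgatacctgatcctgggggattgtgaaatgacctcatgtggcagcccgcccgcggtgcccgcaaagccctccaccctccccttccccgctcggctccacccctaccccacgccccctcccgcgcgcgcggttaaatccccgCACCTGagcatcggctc
IFI27, interferon element, chr14:94110486-94110735, + strand: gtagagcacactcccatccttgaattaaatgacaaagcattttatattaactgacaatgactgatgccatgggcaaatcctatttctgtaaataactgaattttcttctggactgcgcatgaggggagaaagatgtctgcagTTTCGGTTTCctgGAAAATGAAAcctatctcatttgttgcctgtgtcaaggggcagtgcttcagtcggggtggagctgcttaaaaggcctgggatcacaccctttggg
IFI6, interferon element, chr1:27672193-27672442, - strand: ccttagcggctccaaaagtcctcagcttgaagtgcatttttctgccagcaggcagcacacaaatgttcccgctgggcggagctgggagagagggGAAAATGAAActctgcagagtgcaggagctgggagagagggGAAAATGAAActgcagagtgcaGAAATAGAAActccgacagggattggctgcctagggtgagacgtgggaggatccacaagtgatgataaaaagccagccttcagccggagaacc
ACTG2 holds 2 CArG boxes, FHL1 holds 1, before 1 of its several listed starts, and DSP holds 2 E-boxes. WFDC2 has 1 E-box, starting 17 bases before the RefSeq start used. The GENCODE starts of WFDC2, DSP and IFI6 given above lie inside the windows shown, and the IFI27 window lies inside that gene's GENCODE span. Bases before a RefSeq start can therefore belong to a transcript with an earlier start. IFI27 has 2 matches of the interferon element and IFI6 has 3. No exact match to the CArG box was found in the windows before the listed ACTA2 starts. The ACTA2 window chr10:88952774-88953023 holds ccctatatgg and ccttgtttgg, which each differ from the motif by 1 base. Such near matches were not counted for any gene.

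The differences were spread unevenly over cells. After thinning to 1000 UMIs, which left out 24 S1 and 37 S2 cells with fewer, an EMCN UMI was found in 4 of 159 S1 cells (2.52%, exact binomial interval 0.69 to 6.32) and 59 of 178 S2 cells (33.1%, 26.3 to 40.6). Without thinning the shares were 9.84% and 46.0%. In the 453 listed C cells, at a median of 5946 UMIs per cell, EMCN was listed at 0. PODXL was found in 27.0% of thinned S1 cells (20.3 to 34.7) and 3.93% of S2 cells (1.6 to 7.93). ACTA2 was found in 20.8% of S1 cells (14.7 to 27.9) and 53.4% of S2 cells (45.8 to 60.9), and in 4.26% of C cells. COL3A1 was found in 41.5% and 72.5%, and KRT8 in 48.4% and 19.7%. SPON1 was found in 13.2% of S1 cells and in 0 of 178 S2 cells, which allows a share of up to 1.69% when the limit is set at 3 cells.

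Within S2 the UMIs of matrix and contractile genes were concentrated in part of the cells. The 22 S2 cells richest in each gene held 56.9% of the ACTA2 UMIs, 39.5% of the COL3A1 UMIs and 34.1% of the IGF2 UMIs. For COL1A1 the share was 89.9%, with 177 of 215 S2 cells at 0 and 44 of 159 UMIs in 1 cell. IGF2 was read in all 215 S2 cells. In S1 the 19 richest cells held 54.7% of the PODXL UMIs and 43.0% of the KRT8 UMIs. These shares are of raw counts, so depth per cell adds to them.

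The T2.5 library, with 626 S1 and 134 S2 cells, gives the same contrast at 2.5 µM in other cells. There 68 of 2080 measured genes were higher in S2 (3.27%) and 63 lower (3.03%). Of the genes called in T5, 51 of the 76 higher and 48 of the 61 lower ones reached the minimum in T2.5, and the sign counts that follow also use those that did not. Of the 76 genes higher in T5, 75 had the same sign in T2.5 and 49 differed by at least 1. Of the 61 genes lower in T5, 59 had the same sign and 30 differed by at least 1. The genes called in both libraries numbered 37 among the higher ones, which is 48.7% of the T5 set and 54.4% of the T2.5 set, and 24 among the lower ones, 39.3% and 38.1%. The higher genes had a median difference of 1.41 in T5 and 1.17 in T2.5, and the lower genes -1.40 and -0.996. Over the 1849 genes measured in both libraries Pearson's r of the differences was 0.74, given as a description across genes. The state names are shared between libraries, so this likeness may follow from how states were assigned, which was not tested.

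**Figure D3:**
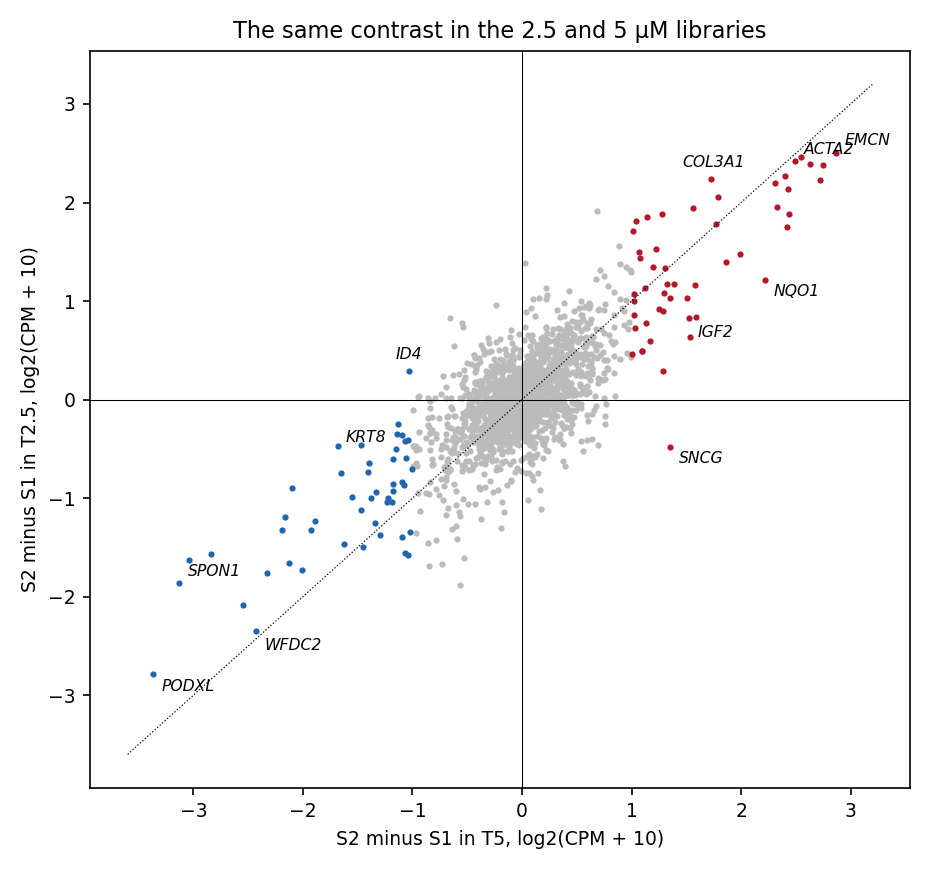
Difference of log2(CPM + 10), S2 minus S1, in T5 (horizontal axis) and T2.5 (vertical axis) for genes measured in both libraries, with genes called higher in T5 in red, called lower in blue and the others in grey, and a dotted line of equal differences. ACTA2 and EMCN lie high in both libraries and PODXL low in both, while KRT8 lies at -1.68 in T5 and -0.47 in T2.5.

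Several leading genes differed between the libraries in size. ACTA2 was nearly the same, 436 CPM in S1 and 2388 CPM in S2 of T2.5, a difference of 2.43 beside 2.50 in T5. KRT8 was 1491 and 1073 CPM in T2.5, a difference of -0.47 beside -1.68, and the epithelial list's median was -0.47 there beside -1.50. PPP1R15A was 60.7 and 55.3 CPM in T2.5, a difference of -0.12 beside -2.54. CTGF, a matricellular target of TGF-beta, was 679 and 2589 CPM in T2.5 (1.92) and 1184 and 1914 CPM in T5 (0.69). Of the class I genes, HLA-B stood at -1.67 in T2.5 beside -0.73 in T5. Whether the libraries' differences are themselves different was not tested, since each has 1 culture.

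T2.5 also gave gene sets chosen without the T5 values, but by the same state names. States may have been assigned over both libraries together, so a separation of T5 cells by these sets may follow from the assignment. That was not tested. For each T5 cell, the percent of its UMIs in the 63 genes lower in S2 of T2.5 was taken from the percent in the 68 higher genes. The median was -0.51 in S1 cells (5th to 95th percentile -2.10 to 1.36) and 1.80 in S2 cells (-0.15 to 5.25). The value was above 0 in 55 of 183 S1 cells (30.1%) and 197 of 215 S2 cells (91.6%). The states overlapped, and 24 S2 cells lay above every S1 cell. Unlisted cells had a median of 0.98, and 267 of 328 (81.4%) were above 0.

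**Figure D4:**
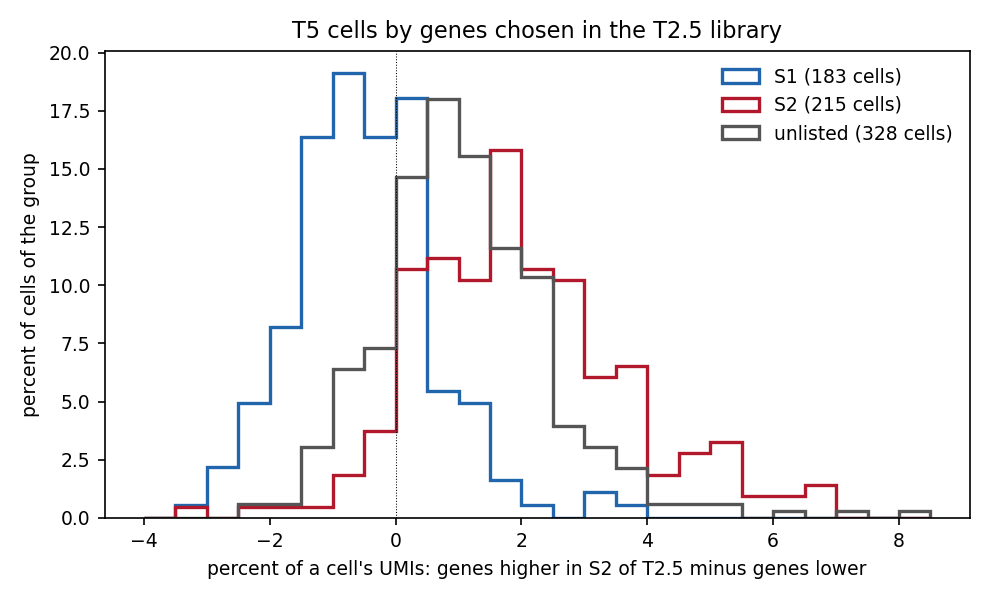
Percent of a T5 cell's UMIs in the 68 genes higher in S2 of T2.5 minus the percent in the 63 lower genes (horizontal axis), as the percent of cells of each group (vertical axis), for S1 (blue), S2 (red) and unlisted cells (grey). S1 cells centre at -0.51, S2 cells at 1.80 and unlisted cells at 0.98, with overlap between the groups. The gene sets rest on the same state names, which may have been assigned over both libraries together.

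S2 was not the same along the escalation. PODXL was 138 CPM in C, 259, 219 and 383 CPM in S1 of T1, T2.5 and T5, and 23.3, 28.1, 31.3 and 36.8 CPM in S2 of T2.5, T5, T10 and T20. Every S2 value of PODXL thus lay below every S1 value and below C. SOX17 was 382 CPM in C, 145, 131 and 140 CPM in S1 of T1, T2.5 and T5, and 23.3, 15.6, 32.0 and 40.9 CPM in S2 of T2.5, T5, T10 and T20. Its S2 values too lay below every S1 value and below C, although C stood above S1 for SOX17 and below S1 for PODXL. ACTA2 was 70.4 CPM in C, 108, 436 and 335 CPM in S1, and 2388, 1936, 99.5 and 444 CPM in S2 in the same order of libraries. Its S2 level in T10 was below the S1 level in T2.5 and T5. COL3A1 was 32.8 CPM in C, 390, 532 and 861 CPM in S1, and 2539, 2873, 1265 and 348 CPM in S2. WFDC2 was 547 CPM in C, 464, 502 and 363 CPM in S1, and 90.2, 59.3, 566 and 731 CPM in S2. The low WFDC2 level of S2 was therefore found in T2.5 and T5 and not in T10 and T20.

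**Figure D5:**
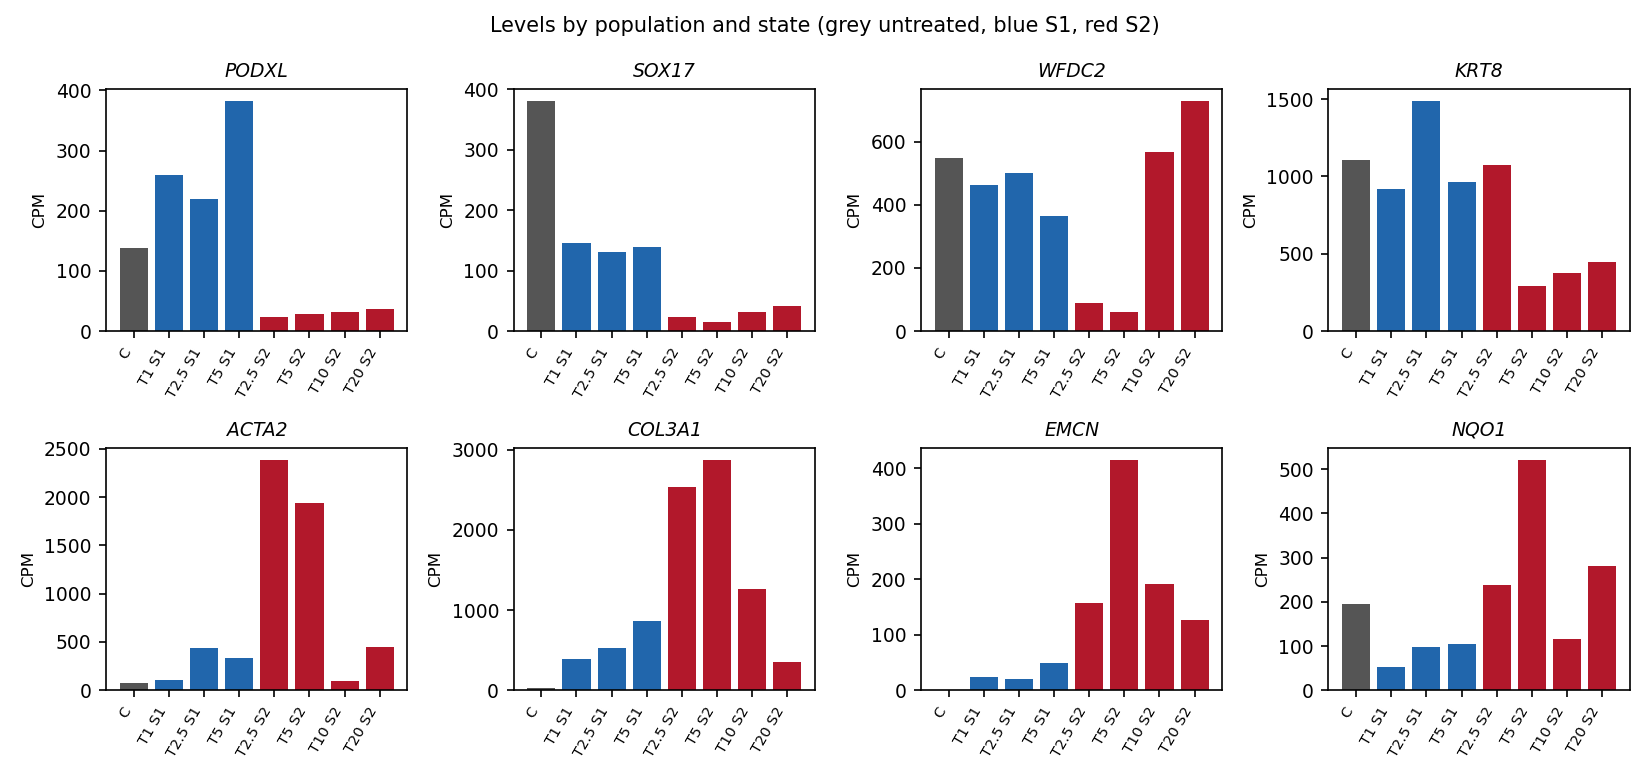
Level in CPM (vertical axis, from 0) of 8 genes in untreated cells (grey), S1 (blue) and S2 (red) of the libraries named below the bars, with 1 library per population and no error bar. Among the groups shown, PODXL and SOX17 are low in all 4 S2 groups, whereas ACTA2 and COL3A1 are highest in S2 of T2.5 and T5. WFDC2 is highest in S2 of T20. Groups of states S3, S4 and S5 are not shown.

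Over all 76 higher genes the summed level was 13161 CPM in S1 and 39548 CPM in S2 of T5, 37095 CPM in S2 of T2.5, 23184 in S2 of T10 and 16839 in S2 of T20. Unlisted T5 cells stood between the states at 28710 CPM, and C at 6358 CPM. In S4 of T10, T20, T40 and T80 the higher genes summed to 29871, 16422, 16346 and 11644 CPM. The 61 lower genes summed to 15503 CPM in S1 and 5058 CPM in S2 of T5, and to 16494 CPM in C. In S2 of T2.5, T10 and T20 they summed to 9043, 8179 and 9295 CPM. In S4 of T10, T20, T40 and T80 they summed to 7471, 9031, 9446 and 6137 CPM. In both sums the T5 values were used to choose the genes, and the other libraries were not.

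The distance between whole profiles was the root mean square of the log2 differences over the 2145 measured genes. It was 0.56 between S1 and S2 of T5, where counting error alone gives 0.20. S1 of T5 and S1 of T2.5 stood 0.39 apart (0.17 from counting error), and S2 of T5 and S2 of T2.5 stood 0.46 apart (0.23). S2 of T5 was 0.68 from S2 of T10 and 0.63 from S2 of T20. The T5 states were thus closer to each other than S2 of T5 was to the S2 groups at higher doses. Distances between libraries also hold any difference between libraries. From untreated cells, S1 of T5 stood at 0.64 and S2 of T5 at 0.87.

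By position, genes on chromosome 1 had the lowest median difference and genes on the X chromosome the highest. The 304 measured genes of chromosome 1 had a median of -0.27, with 14 called lower and 3 called higher, where all measured genes gave 2.84% and 3.54%. The 54 genes of the X chromosome had a median of 0.25, with 4 called higher, among them BGN, FHL1 and GPC3, and 0 called lower. Medians of the other chromosomes with at least 20 measured genes ran from -0.16 to 0.13. S100A16, S100A10, S100A2, IFI6, NMNAT2, JUN and PARP1 all lie on chromosome 1. The part of position in their differences was not tested.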

How the data were processed

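Single cells were captured by inDrop, per the labels. Seurat 2.3.2 and the build GRCh38 (hg38) come from the submitters' processing notes. Aligner, counter, annotation, cell filters and state assignment were not given in the sources used here. A deposited matrix holds raw UMI counts of 12373 genes. The deposited cell table gives UMI counts, gene counts and a mitochondrial fraction for each cell. UMI totals of all 8240 listed cells were identical in both files.

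Counts were summed over the cells of a state, scaled to CPM and compared as log2(CPM + 10), with a minimum of 100 CPM in S1 or S2 and a call at a difference of 1. Fold intervals are exact conditional binomial and share intervals exact Clopper-Pearson, both at 95% and covering counting error only. Beside a share of 0 cells the limit is 3 counts over the number of cells. No test was run, since there is 1 library and the states come from the same cells. No doublet caller was run, so doublets that passed the authors' filters remain. In T5 a gene was either at 0 in every cell or present in at least 7 cells, so a gene listed at 0 is not a measured absence.

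Genes were named by rule: the 20 highest and 20 lowest differences, the 3 members furthest from 0 in each gene list with at least 3 measured members, and genes fixed whatever their values. ACTB, ACTG2, AKAP13, ANXA6, COL5A1, CYR61, EMX2, FN1, IER2, IFITM1, IGFBP2, JUP, LAMB1, LGALS3BP, MYH9, NR2F2, PLAT, PLAU, PLOD1, S100A11, SLPI, SNCG and VCL were named after their values were seen. Some genes that the rule selects are not reported here. The members and the lists were chosen with earlier results of these data known. Positions are from GENCODE 29 and promoters from RefSeq. The calls were checked on simulated counts. Alternatives were other pseudocounts, minimums and scalings (edgeR 4.0.16, DESeq2 1.42.0 size factors), a mean over cells, thinning and omission of cells. Python 3.11.15, numpy 2.4.6, scipy 1.17.1 and R 4.3.3 were used.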

Additional observations from a re-analysis of the deposited data

Results flagged for a closer look

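Of the genes called in T5, 3 had the opposite sign in T2.5, and this difference between libraries was not tested. AKAP13, a scaffold of protein kinase A, stood at -1.40 in T5 and 0.074 in T2.5, where it was under the minimum of 100 CPM in both states. ID4, an inhibitor of helix-loop-helix factors, stood at -1.04 in T5 (235 CPM in S1, 109 in S2) and 0.29 in T2.5 (93.5 and 116 CPM). SNCG, gamma-synuclein, stood at 1.35 in T5 and -0.48 in T2.5.

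The 328 unlisted T5 cells, which no comparison of states uses, had more cell-cycle transcripts than the listed cells. The G2/M list summed to 6723 CPM in unlisted cells against 1133 in S1 and 1052 in S2. The G1/S and replication list summed to 2904 CPM against 639 and 547 CPM. The name of the authors' cell table refers to G1.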

How the results depend on the processing

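No paired analysis was possible because each population has 1 library and no replicate number. The numbers of called genes depended on the settings. With a pseudocount of 50 CPM there were 46 higher and 33 lower genes, with a minimum of 50 CPM 131 and 148 (of 4165 measured), with a minimum of 200 CPM 40 and 24 (of 915), with no minimum 252 and 329 (of 11002), and with cells thinned to 1000 UMIs 147 and 154. With mitochondrially encoded and ribosomal protein genes left out of the total, 96 genes were lower. The other scalings, the mean over cells and the omission of cells kept both counts within 1.5 times. No gene called in T5 changed sign under any setting, and thinning kept 58 of the 76 higher and 48 of the 61 lower calls. The mean over cells kept 62 and 53 of them. Without thinning, EMCN was found in 9.84% of S1 and 46.0% of S2 cells and PODXL in 44.8% of S1 cells, and at 700 UMIs EMCN was found in 21.4% of S2 cells. The share of higher genes with the same sign in T2.5 was 100% with a pseudocount of 50 CPM and with a minimum of 200 CPM, and that of lower genes was 100% with a pseudocount of 50 CPM. Depth limits genes under 100 CPM, which have few UMIs in each state.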
